A study of Sus scrofa with 8 samples.

Results

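The nuclear genes of oxidative phosphorylation were examined in RNA-seq libraries of pig heart. They were taken by symbol as the rows of the expression table outside the mitochondrial genome whose name starts with NDUF, UQCR, COX4 to COX8 or ATP5, together with SDHA, SDHB, SDHC, SDHD, CYC1 and CYCS. The rule gave 77 of the 18975 genes listed, under 75 distinct symbols. There were 32 structural genes of complex I, 6 complex I assembly factors, 4 genes of complex II, 5 of complex III, cytochrome c, 15 genes of complex IV, 13 of complex V and ATP5S, an accessory gene of complex V. No row carried the symbol CYC1 in the table. The 77 members lay on 18 chromosomes of the Sscrofa10.2 build, with 4 of them on unplaced scaffolds. All 77 had at least 1 FPKM (sequenced fragments scaled to transcript length in kilobases and to 1000000 mapped fragments) in at least 2 libraries, the filter that 11913 genes passed.

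The study asked how heart expression differs between breeds and altitudes. TH were Tibetan pigs raised at 3000 m, YH were Yorkshire pigs raised at 3000 m, TL were Tibetan pigs raised at 100 m, and YL were Yorkshire pigs raised at 100 m. All animals were males slaughtered at 6 months of age, and no agent, deletion or transgene was involved. Each group had 2 libraries, and each library was made from pooled RNA of 4 pigs. The spread between libraries is therefore a spread between pools, and breed and altitude are the only factors that the labels give. The sources used here do not say which chamber of the heart was taken. In bulk tissue, fewer cells of a type and less RNA per cell cannot be told apart.

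Oxidative phosphorylation carries electrons from NADH through complex I, or from succinate through complex II, to complex III, cytochrome c and complex IV, where oxygen is reduced. Complexes I, III and IV pump protons across the inner mitochondrial membrane, and complex V, the ATP synthase, uses the gradient to make ATP. Most subunits are encoded in the nucleus, and a small core is encoded by the mitochondrial genome. Heart muscle is rich in mitochondria, and complex IV has heart and skeletal muscle forms of some subunits beside forms found in most tissues.

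The heart label was checked against marker genes. Of the cardiomyocyte markers, 8 rows were measured, and the troponin gene TNNT2 stood between 2804 FPKM in YL2 and 7636 FPKM in YL1. YL2 also carried kidney genes. The uromodulin gene UMOD was at 947 FPKM in YL2 and at most 0.811 FPKM elsewhere, and LRP2, a receptor of the proximal tubule, was at 190.3 FPKM in YL2 and at most 0.720 FPKM elsewhere. The summed kidney markers reached 5013 FPKM in YL2 and at most 18.1 FPKM in each of the other libraries. Of the 6 atrial markers tested, NPPA, MYL7 and SLN were highest in TH1 and TH2, with NPPA at 2263 and 2146 FPKM against 23.1 to 108 FPKM in the other 6 libraries. MYL4 and NR2F2 were not, and TBX5 was at 9.14 and 8.39 FPKM for TH against 12.3 to 17.1 FPKM in TL and YH, and at 10.6 and 5.31 FPKM for YL, so that TH lay within the range of YL. The number of reads on genes, estimated from the step size of the deposited read signal, which did not pass as whole reads for all genes, ran from 15687000 in TH2 to 26723000 in TH1. The mitochondrial genome took between 57.7% of the FPKM sum in YH2 and 87.6% in TH1. Fold changes are therefore given also without a single library where leaving it out moved them by more than 1.5 times.

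The nuclear oxidative phosphorylation genes were among the most abundant transcripts of the heart. The median of their mean FPKM over the 8 libraries was 326, against 5.86 for all genes tested. A mean of at least 100 FPKM was reached by 64 members, or 83.1%, against 5.02% of all genes tested, and 11 members had a mean of at least 1000 FPKM. Complex IV had the highest median of mean FPKM at 885, followed by complex V at 802, complex III at 654, complex I at 309 and complex II at 248. The single cytochrome c gene, CYCS, had a mean of 754 FPKM. The complex I assembly factors, which help to build the enzyme and are not part of it, had a median of 13.3 FPKM. The plot of mean FPKM by complex shows that the spread within complexes I, IV and V was wider than the difference between their medians.

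**Figure D1:**
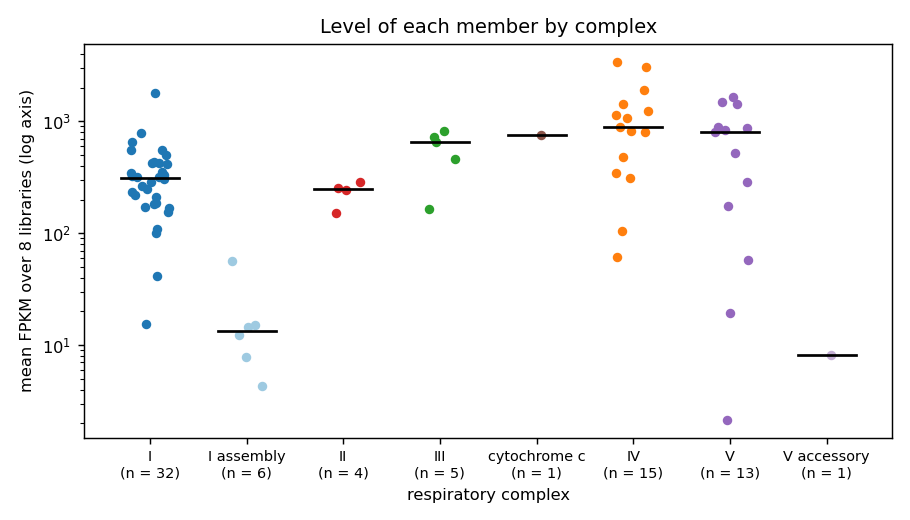
Mean FPKM over the 8 libraries on a log axis for each of the 77 members, by respiratory complex, with 1 point per gene row and a black bar at the median. Complex IV reached from 61.4 FPKM to 3404 FPKM and complex V from 2.15 FPKM to 1649 FPKM, while all 6 assembly factors of complex I lay at or under 56.0 FPKM.

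The level of the members as a whole differed between the libraries of TH and between those of YL. Their median FPKM was 506 in TH1 and 270.3 in TH2, 325 in TL1 and 343 in TL2, 312 in YH1 and 293 in YH2, and 373 in YL1 and 216 in YL2. TH1 held the highest value of 49 members and YL2 the lowest value of 59 members. Within TH, 74 of 77 members were higher in TH1, with a median difference of 0.73 on the log2(FPKM + 1) scale. Within YL, 70 members were higher in YL1, with a median difference of 0.88. Within TL and YH the median differences were -0.07 and 0.11. Over all genes tested, the median difference between the libraries of a group lay between -0.08 and 0.01, so that the shift in TH and YL was not shared by the typical gene. Marker sums also differed between these libraries, and not all went the way of the members. The 8 cardiomyocyte markers summed to 36827 FPKM in TH1 and 20849.8 FPKM in TH2, and to 32334 FPKM in YL1 and 13323 FPKM in YL2. The fibroblast markers summed to 202 FPKM in TH1 and 716 FPKM in TH2, and to 283 FPKM in YL1 and 244 FPKM in YL2. In the same order of libraries, the atrial markers summed to 6625, 5392, 2622 and 408 FPKM. The skeletal muscle markers summed to 30008, 21391, 13046 and 5833 FPKM, and the blood markers to 3089, 1625, 631 and 528 FPKM. The part of these markers, of the kidney genes of YL2 and of the mitochondrial share of TH1 in the shifts was not tested.

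The shift was uneven across the complexes. Between TH1 and TH2 the median difference was 0.88 for complex IV, 0.80 for complex I, 0.71 for complex III, 0.44 for complex V and 0.31 for complex II. Between YL1 and YL2 it was 1.08 for complex III, 1.07 for complex IV, 0.88 for complex I, 0.81 for complex V and 0.52 for complex II. The members that were higher in TH2 than in TH1 were NDUFAF1, NDUFS1 and the ATP5J row ENSSSCG00000030602, with differences of -1.11, -0.12 and -0.30 on the log2 scale. In YL, the complex IV genes COX6A1, COX8A and COX7A2L were higher in YL2 than in YL1, as were SDHC, ATP5S, NDUFAF1 and NDUFAF2.

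**Figure D2:**
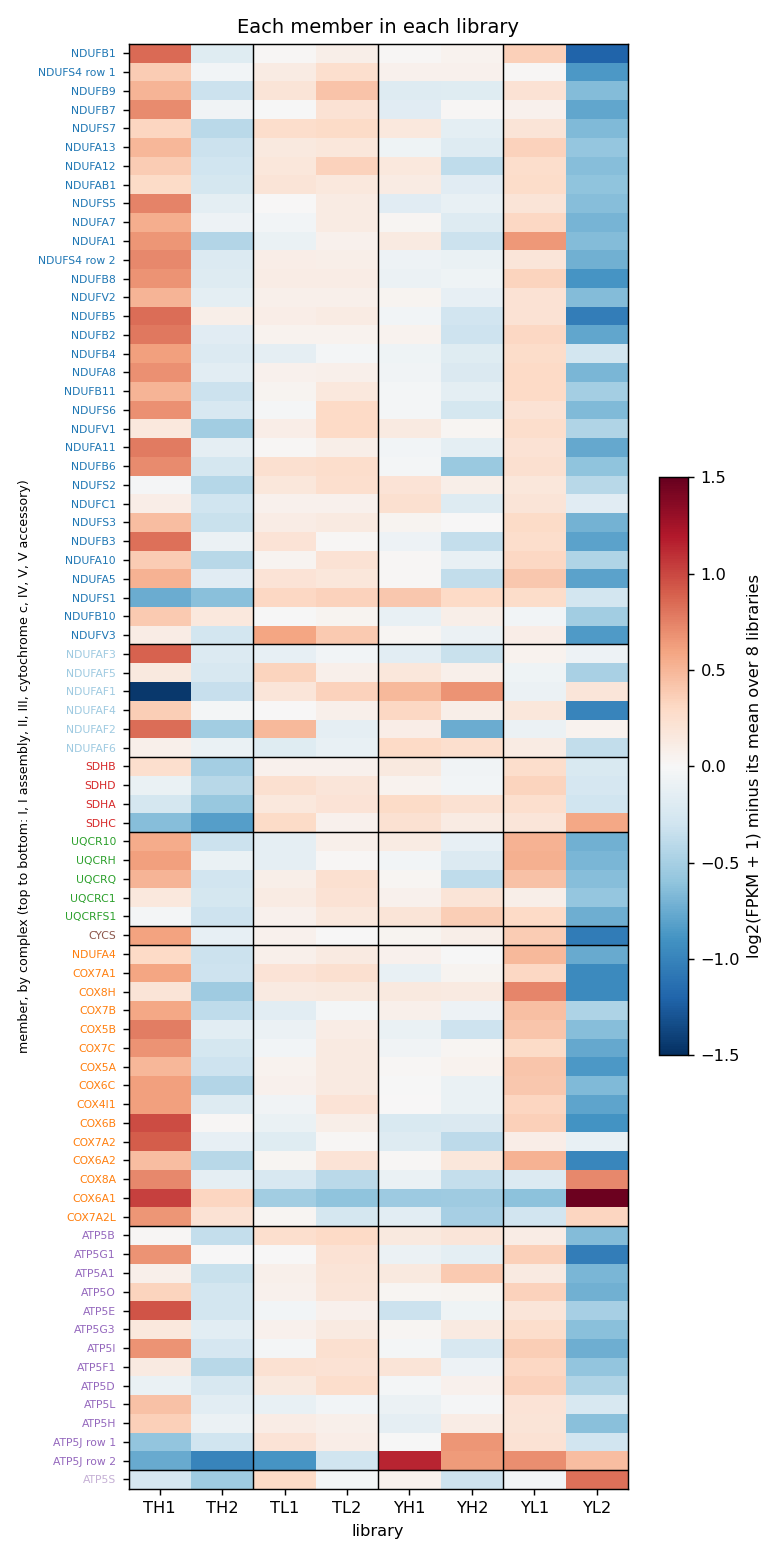
Heat map of the 77 members (rows, grouped by complex from complex I at the top to complex V and its accessory gene at the bottom) in the 8 libraries (columns), coloured by log2(FPKM + 1) minus the gene's mean over the 8 libraries. TH1 is red and YL2 blue for most rows, and the darkest exceptions are NDUFS1, NDUFAF1, SDHC and both ATP5J rows in TH1 and COX6A1, COX8A, SDHC and ATP5S in YL2.

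No member passed the test in any comparison. Groups were compared with limma on log2(FPKM + 1) in 1 fit of all 8 libraries, and calls needed an adjusted p under 0.01 together with a log2 difference of more than 1 in size. Of all genes tested, this called 0.0336% in TH vs. YH, 0.00839% in TL vs. YL, 0.0504% in TH vs. TL, 0% in YH vs. YL and 0.0336% in the interaction, which is the altitude difference of Tibetan pigs minus that of Yorkshire pigs. No member had an adjusted p under 0.05 in any of these either, where the background was 0.260% in TH vs. YH, 0.00839% in TL vs. YL, 0.101% in TH vs. TL, 0% in YH vs. YL and 0.0420% in the interaction. At an unadjusted p under 0.05, TH vs. YH had 1 member higher and 6 lower, against 7.71% and 8.47% of all genes. TL vs. YL had 1 higher and 1 lower, against 5.90% and 3.04%. TH vs. TL had 0 higher and 3 lower, against 5.81% and 5.53%. YH vs. YL had 0 in both directions, against 4.39% and 1.58%, and the interaction had 1 higher and 2 lower, against 3.78% and 7.16%. The shares of members were at most 7.79%. At an unadjusted p under 0.01 with a log2 difference of more than 1 in size, 3 members stood in TH vs. YH, or 3.90% against 4.06% of all genes. The count was 1 for the interaction, TL vs. YL and also TH vs. TL, or 1.30% against 2.85%, 2.03% and 2.57%, and 0 in YH vs. YL against 0.839%. The members vary together, and no difference in share was tested.

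The median of the members depended on which library represented TH or YL. In TH vs. YH the median log2 fold change was 0.18, with 49 members higher and 28 lower, and it was -0.23 without TH1 and 0.55 without TH2. In TH vs. TL it was -0.01 with 37 members higher, and it was -0.38 without TH1 and 0.37 without TH2. In TL vs. YL it was 0.29 with 64 members higher, and it was -0.15 without YL2 and 0.75 without YL1. In YH vs. YL it was 0.16 with 59 members higher, and it was -0.31 without YL2 and 0.61 without YL1. The interaction had a median of -0.09, and this ran from -0.57 without YL1 to 0.35 without YL2. Over all genes tested the 5 medians lay between -0.03 and 0.03. With every library scaled to the same FPKM sum, most of which is mitochondrial, the median of the members was -0.79 in TH vs. YH and -0.62 in TH vs. TL, where all genes shifted to -0.50 and -0.27. This scaling moves every gene of these comparisons by the same -0.99 and -0.64 before the pseudocount is added, and by less where a gene is low, so a change of sign under it is not particular to these genes. In TL vs. YL it moves every gene by -0.34, and the median of the members became -0.05 with 24 higher and 53 lower, where all genes shifted to -0.23. Scaling by the median ratio between libraries gave medians of 0.05 in TH vs. YH, -0.12 in TH vs. TL, 0.20 in TL vs. YL and 0.10 in YH vs. YL. With equal FPKM sums outside the mitochondrial genome they were 0.03, -0.20, 0.35 and 0.17. The interaction was -0.14 and -0.30 under these 2 scalings. With the deposited scaled reads in place of FPKM the median in YH vs. YL was 0.08 with 46 members higher. No direction of the whole group of genes is therefore drawn in any comparison.

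Members whose libraries did not overlap between the groups were counted beside all genes, with no test of a difference in share. In TH vs. YH, 7 members were higher in both TH libraries than in both YH libraries, or 9.09% against a background of 25.2%, and 13 were lower, or 16.9% against 27.3%. In TH vs. TL, 5 were higher, or 6.49% against 24.0%, and 13 lower, or 16.9% against 24.5%. In TL vs. YL, 10 were higher, or 13.0% against 23.8%, and 2 lower, or 2.60% against 17.8%. In YH vs. YL, 7 were higher, or 9.09% against 21.9%, and 2 lower, or 2.60% against 14.4%. Comparisons that share a group share its libraries. Both TH libraries lay below the other 6 for 4 members, or 5.19% against 8.06% of all genes, and without YL2 for 10 members, or 13.0% against 11.9%. Without YL2 they lay above the other 5 for COX6A1, COX7A2L and NDUFB10, or 3.90% of members against 13.7%.

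**Figure D3:**
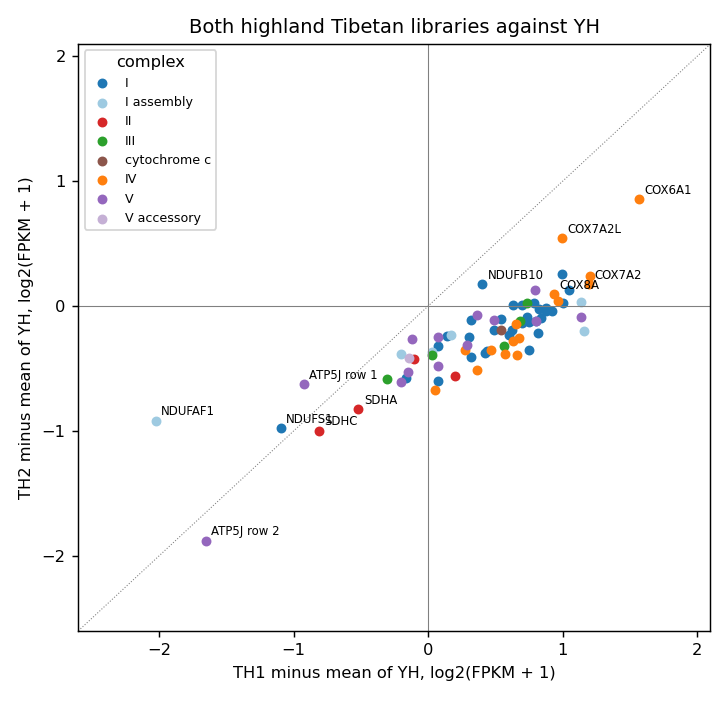
Each member in TH1 (horizontal axis) and in TH2 (vertical axis), as the difference from the mean of both YH libraries in log2(FPKM + 1), coloured by complex, with a dotted line where both differences are equal. Most points lie to the right of 0 and near or under 0 on the vertical axis, while COX6A1 and COX7A2L lie above 0 in both libraries and NDUFS1, SDHC, SDHA, NDUFAF1 and both ATP5J rows lie under 0 in both.

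Complex I takes electrons from NADH. Its most abundant gene was NDUFB1, a small accessory subunit of the membrane arm (ENSSSCG00000002449, chr7:120296366-120298214). In each pair of values, replicate 1 of a group is given before replicate 2. NDUFB1 was at 3030.4 and 1478 FPKM for TH, 1692 and 1781 for TL, 1693 and 1738 for YH, and 2147 and 728 for YL. NDUFB9, an accessory subunit (ENSSSCG00000005976, chr4:15698065-15935437), was at 894 and 502 FPKM for TH, 719 and 844 for TL, 548 and 555 for YH, and 731 and 399.9 for YL. In both genes the ranges of TH and YL included the values of YH. NDUFS4, a subunit needed for a stable enzyme, was listed in 2 rows on chromosome 16. The row ENSSSCG00000024947 (chr16:34854095-34902399) was at 1006 and 748 FPKM for TH, 839.5 and 922 for TL, 807 and 806 for YH, and 782 and 424 for YL. The row ENSSSCG00000016893 (chr16:34963054-34992624) was at 552 and 290.2 FPKM for TH, 359 and 354 for TL, 318 and 313 for YH, and 379 and 203 for YL. The 2 rows lie close together and carry 1 name, so reads of 1 gene may be split between them.

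NDUFS1, the largest subunit of complex I and a carrier of iron-sulphur clusters, had lower values in TH than in the other groups (ENSSSCG00000016127, chr15:120961660-120998378). It was at 56.8 and 61.7 FPKM for TH, 119 and 122 for TL, 127 and 118 for YH, and 116 and 79.1 for YL. Both TH libraries lay below the other 6, and NDUFS1 was the only structural gene of complex I that was lower in TH1 than in TH2. The log2 fold change was -1.04 ± 0.25 (SE) in TH vs. YH, with an unadjusted p of 0.00445 and an adjusted p of 0.152 in limma. The lowest adjusted p over the alternative settings was 0.0559. In TH vs. TL the log2 fold change was -1.01 ± 0.25 with an adjusted p of 0.248, and in the interaction -1.36 ± 0.35 with an adjusted p of 0.329. The difference kept its sign in all alternatives and did not pass the threshold.

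Other genes of complex I had smaller differences. NDUFV3, an accessory subunit of the NADH-binding part, was at 23.0 and 19.9 FPKM for TL, 16.0 and 7.81 for YL, 16.2 and 12.2 for TH, and 15.2 and 14.0 for YH. Its log2 fold change in TL vs. YL was 0.87 ± 0.33 with an adjusted p of 0.507, and it was 0.40 without YL2 and 1.35 without YL1. NDUFB5 was at 542 and 324 FPKM for TH and at 296 and 248 for YH. The log2 fold change of 0.63 ± 0.45 in TH vs. YH had an adjusted p of 0.521, was 0.26 without TH1 and 0.99 without TH2, and became -0.36 with libraries scaled to the same FPKM sum. NDUFB10 was the only member above the other 6 libraries in both TH libraries, at 53.8 and 45.8 FPKM against 28.2 to 43.5, or 1.30% of members against 10.1% of all genes. Its fitted log2 difference in TH vs. TL was 0.26 ± 0.24, with an adjusted p of 0.729, was 0.15 without TH1, and was -0.33 with libraries scaled to the same FPKM sum. The NDUFB10 locus overlaps that of the ribosomal protein gene RPS2, which had a mean of 884 FPKM, and the counting was not stated to use strand. NDUFS7, an iron-sulphur subunit, was at 646 and 660.3 FPKM for TL and 616 and 340.0 for YL, with a log2 fold change of 0.51 ± 0.39 and an adjusted p of 0.750, which was 0.08 without YL2 and 0.94 without YL1. The NDUFS4 row ENSSSCG00000024947 had a log2 fold change of 0.61 ± 0.37 in TL vs. YL, with an adjusted p of 0.683, and of 0.49 ± 0.37 in YH vs. YL, with an adjusted p of 0.790. Without YL2 these were 0.17 and 0.04, and without YL1 they were 1.05 and 0.93. With scaled reads in place of FPKM they were 0.36 and 0.15.

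Among the assembly factors of complex I, NDUFAF1 was the lowest in TH relative to the other groups. It was at 4.25 and 10.3 FPKM for TH, 15.3 and 17.2 for TL, 19.0 and 21.8 for YH, and 12.5 and 15.3 for YL. Both TH libraries lay below the other 6, and the value in TH1 was the lowest. The log2 fold change was -1.47 ± 0.36 in TH vs. YH, with an adjusted p of 0.156, and -1.16 ± 0.36 in TH vs. TL, with an adjusted p of 0.314. Without TH1 these were -0.92 and -0.61. The interaction was -1.69 ± 0.51 with an adjusted p of 0.357. In YH vs. YL, NDUFAF1 had a log2 fold change of 0.53 ± 0.36 with an adjusted p of 0.784. NDUFAF5 was at 19.0 and 15.8 FPKM for TL and 14.2 and 10.3 for YL, with a log2 fold change of 0.48 ± 0.25 and an adjusted p of 0.636, which was 0.27 without YL2. NDUFAF6 was at 4.53 and 3.89 FPKM for TH, 3.64 and 3.85 for TL, 5.48 and 5.26 for YH, and 4.73 and 3.06 for YL. On the log2 scale its difference was 0.13 ± 0.23 in TH vs. TL, turned negative under 3 other scalings, and was 0.40 ± 0.23 in YH vs. YL, with adjusted p of 0.877 and 0.784. The former was 0.04 without TH1 and 0.22 without TH2, and the latter 0.15 without YL2 and 0.65 without YL1. NDUFAF3 was at 48.3 and 42.7 FPKM for YH and at 55.9 and 51.4 for YL, with a log2 fold change of -0.23 ± 0.36 and an adjusted p of 0.892, which was -0.15 without YH2.

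Complex II, succinate dehydrogenase, is the only complex with no mitochondrially encoded subunit, and links the citric acid cycle to the respiratory chain. SDHA, the flavoprotein that oxidises succinate, was at 197 and 159 FPKM for TH, 264 and 272 for TL, 289 and 276 for YH, and 280.3 and 192 for YL. SDHB, the iron-sulphur subunit, was at 334 and 197 FPKM for TH, 295 and 293 for TL, 312 and 271 for YH, and 339 and 239.7 for YL. SDHD, a membrane anchor, was at 236 and 189 FPKM for TH, 297 and 286 for TL, 262 and 246 for YH, and 318 and 211 for YL. SDHA and SDHD lay lower in both TH libraries than in all 4 libraries of TL and YH, and SDHB did not. SDHC, the other membrane anchor (ENSSSCG00000030318, chr4:96992134-97026507), was at 92.6 and 81.2 FPKM for TH, 177 and 151 for TL, 169.8 and 157 for YH, and 164 and 216 for YL. Both TH libraries lay below the other 6 for SDHC.

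The fitted differences of SDHC were -0.90 ± 0.24 in TH vs. YH and -0.91 ± 0.24 in TH vs. TL on the log2 scale, with unadjusted p of 0.00796 and 0.00778 and adjusted p of 0.177 and 0.268. Those of SDHA were -0.67 ± 0.27 and -0.60 ± 0.27, with adjusted p of 0.297 and 0.471. All 4 genes had a negative fitted difference in both comparisons, with a median of -0.47 in TH vs. YH and -0.53 in TH vs. TL, and each scaling tried left these medians negative. They were -1.43 and -1.14 with libraries scaled to the same FPKM sum, which moves every gene by -0.99 and -0.64. Without TH2, 3 of the 4 were lower, with medians of -0.31 and -0.37. None of the 4 was called. Other markers also differed in TH: the cardiomyocyte markers had a median of -0.33 in TH vs. YH, with 5 of 8 lower, and of -0.69 in TH vs. TL, with 7 of 8 lower, and the fibroblast markers had medians of -0.07 and -0.71. The fibroblast medians combined TH libraries that lay apart, since leaving out TH1 gave 1.54 and 0.33, and leaving out TH2 gave -1.23 and -1.70. The cardiomyocyte median in TH vs. YH was -0.52 without TH1 and -0.07 without TH2. The 6 atrial markers had medians of 1.60 and 0.52, the 3 blood markers 1.09 and 0.61, the 4 smooth muscle markers 0.76 and 0.35, and the 2 skeletal muscle markers tested 1.62 and 1.39. Without TH1 the blood medians were 0.63 and 0.29, and without TH2 they were 1.53 and 1.05. The smooth muscle median in TH vs. TL was 0.22 without TH2, 0.59 without TL1 and 0.12 without TL2. The part of all these markers in the values of complex II was not tested.

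A second view was added after the data had been seen, in which each library was centred on the median log2(FPKM + 1) of the 77 members. This removes the shift that the members share and leaves their order within a library. Both TH libraries then lay below the other 6 for 16 members, or 20.8%, against 5.49% of all genes tested, and above them for 4 members, or 5.19%, against 3.11%. Without YL2 the counts were 25 below, or 32.5% against 6.20%, and 9 above, or 11.7% against 6.28%. The centring uses the members themselves, so the shares of members and of all genes are not on equal terms and nothing is read from their difference. The 16 members were all 4 genes of complex II, 7 of 32 in complex I, 4 of 13 in complex V and ATP5S. The 25 without YL2 were all 4 genes of complex II, 8 of complex I, 6 of complex V, ATP5S, 5 of complex IV (COX5A, COX6A2, COX6C, COX8H and NDUFA4) and UQCRFS1 of complex III. Complexes III and IV had no gene among the 16. SDHC stood 2.44 and 1.72 log2 units under the median of the members in TH, between 0.87 and 1.18 under it in TL, YH and YL1, and at the median in YL2. SDHA stood 1.36 and 0.76 units under the median in TH and between 0.09 and 0.41 under it in the other 6 libraries.

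**Figure D4:**
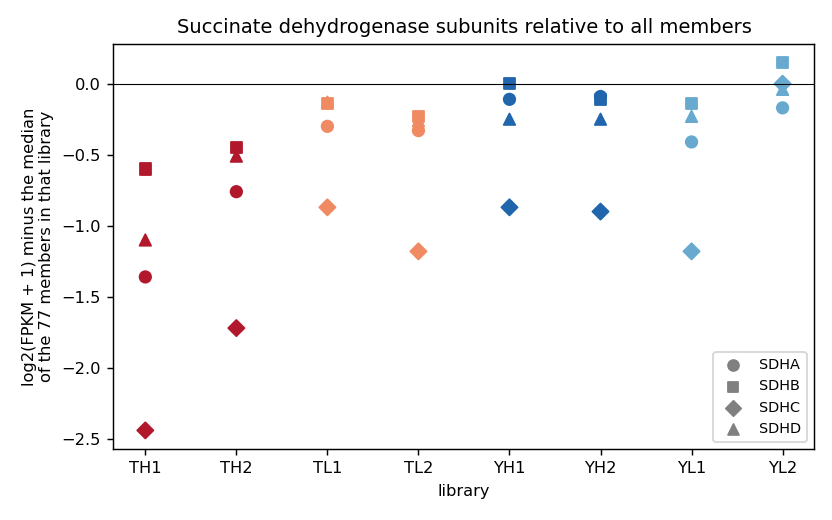
The 4 succinate dehydrogenase genes in each library, as log2(FPKM + 1) minus the median of the 77 members in that library (vertical axis), with marker shape for the gene and colour for the group. In TH1 and TH2 each gene lies below its own values in the other 6 libraries, from -2.44 for SDHC in TH1 to -0.45 for SDHB in TH2.

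Complex III passes electrons from ubiquinol to cytochrome c. Its 3 most abundant genes were UQCR10, UQCRH and UQCRQ, all small subunits. UQCR10 was at 1173 and 638 FPKM for TH, 727 and 840.5 for TL, 865 and 729.5 for YH, and 1143 and 484 for YL. UQCRH was at 1073 and 655 FPKM for TH, 641 and 709 for TL, 680.1 and 608 for YH, and 1019.9 and 436 for YL. UQCRQ was at 902 and 517 FPKM for TH, 673 and 747 for TL, 648 and 487 for YH, and 857 and 405 for YL. In all 3 the range of TH overlapped those of TL and YH. UQCRFS1, the Rieske iron-sulphur subunit, singled out after its values were seen, was at 159 and 131 FPKM for TH, 169 and 181 for TL, 185 and 209.6 for YH, and 199 and 97.3 for YL, so that TH lay below TL and YH. Cytochrome c, the soluble carrier between complexes III and IV, also had its highest values in TH1 and YL1 and its lowest in YL2. Its gene CYCS was at 1098 and 660.1 FPKM for TH, 752 and 722 for TL, 741 and 765 for YH, and 943 and 349 for YL.

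Complex IV, cytochrome c oxidase, reduces oxygen to water. Its most abundant genes were NDUFA4, a subunit once assigned to complex I, COX7A1 and COX8H. NDUFA4 (ENSSSCG00000024313, chr9:88555976-88562999) was at 4081 and 2646 FPKM for TH, 3494 and 3642 for TL, 3459 and 3297 for YH, and 4642 and 1965 for YL. COX7A1 (ENSSSCG00000025533, chr6:40921404-40922901) was at 4383 and 2339 FPKM for TH, 3348 and 3425 for TL, 2683 and 2996 for YH, and 3593 and 1492 for YL. COX8H (ENSSSCG00000014560, chr2:162099156-162210447) was at 2075 and 1254 FPKM for TH, 1988 and 2002 for TL, 2008 and 1995 for YH, and 3023 and 931 for YL. None of the 3 separated TH from YH or TL. COX4I1, the common form of subunit 4, was at 1209 and 695 FPKM for TH, 760.5 and 912 for TL, 797 and 739.5 for YH, and 987 and 456 for YL. COX6B was at 1479 and 758 FPKM for TH, 701 and 798 for TL, 639 and 644 for YH, and 961 and 402 for YL. COX7B was at 2090.2 and 1076 FPKM for TH, 1255 and 1369 for TL, 1481 and 1329 for YH, and 1913 and 1012 for YL.

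Subunits with a muscle form and a form found in most tissues were compared pair by pair. COX6A1, the form of subunit 6A found in most tissues (ENSSSCG00000009909, chr14:42876216-42878864), was at 182 and 111 FPKM for TH, 61.5 and 58.2 for TL, 60.5 and 61.2 for YH, and 57.5 and 249 for YL. Its muscle partner COX6A2 was at 455 and 247 FPKM for TH, 338 and 383 for TL, 335 and 371 for YH, and 475 and 167 for YL. COX6A1 thus lay higher in both TH libraries than in TL, YH and YL1, and highest in YL2, while COX6A2 was lowest in YL2. The log2 fold change of COX6A1 was 1.21 ± 0.63 in TH vs. YH and 1.24 ± 0.63 in TH vs. TL, with adjusted p of 0.389 and 0.509 in limma. With libraries scaled to the same FPKM sum these were 0.23 and 0.59, and with single libraries left out they ran from 0.86 to 1.57 and from 0.88 to 1.59. The interaction was 2.20 ± 0.89, with an adjusted p of 0.443, and was 1.16 without YL2. The fit pools the spread within all 4 groups, so each SE of COX6A1 also holds the gap between YL1 and YL2. On the log2(FPKM + 1) scale, replicate 1 minus replicate 2 was -2.09 in YL and 0.71 in TH.

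COX7A2, the form of subunit 7A found in most tissues, was at 868 and 427 FPKM for TH, 408 and 468 for TL, 404 and 353 for YH, and 495 and 428 for YL. COX8A, the form of subunit 8 found in most tissues, was at 486 and 270.3 FPKM for TH, 250.2 and 223 for TL, 277 and 231 for YH, and 256 and 486 for YL. COX7A2L, related to subunit 7A and known from the assembly of respiratory supercomplexes, was at 94.7 and 69.2 FPKM for TH, 60.5 and 49.3 for TL, 53.1 and 41.7 for YH, and 48.4 and 74.4 for YL. In TH vs. YH the log2 fold changes were 0.77 ± 0.30 for COX7A2L, 0.72 ± 0.50 for COX6B and 0.69 ± 0.37 for COX7A2, with adjusted p of 0.289, 0.499 and 0.406. COX6B was 0.24 without TH1 and 1.20 without TH2, and COX7A2 was 0.18 and 1.20. With libraries scaled to the same FPKM sum, which moves every gene by -0.99 in this comparison, all 3 turned negative, to -0.19, -0.26 and -0.30. In TH vs. TL they were 0.56 ± 0.30 for COX7A2L and 0.61 ± 0.41 for COX8A, with adjusted p of 0.535 and 0.621, and became -0.06 and -0.02 under that scaling, which moves every gene by -0.64 here. Without TH1 they were 0.34 and 0.19, and without TH2 COX8A was 1.04. COX8A had a log2 fold change of -0.57 ± 0.41 in TL vs. YL, which was -0.11 without YL2 and -1.04 without YL1, and COX7A2 one of -0.29 ± 0.37 in YH vs. YL, which was -0.18 without YL1 and -0.19 without YH2. The adjusted p were 0.737 and 0.873.

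A ratio of 2 genes within a library does not depend on how the library was scaled. COX6A1 over COX6A2 was 0.400 in TH1 and 0.449 in TH2, 0.182 and 0.152 for TL, 0.180 and 0.165 for YH, and 0.121 and 1.49 for YL. COX7A2 over COX7A1 was 0.198 and 0.182 for TH, 0.122 and 0.137 for TL, 0.151 and 0.118 for YH, and 0.138 and 0.287 for YL. COX8A over COX8H was 0.234 and 0.216 for TH, 0.126 and 0.112 for TL, 0.138 and 0.116 for YH, and 0.0846 and 0.522 for YL. In all 3 pairs both TH libraries lay above TL, YH and YL1, and YL2 lay above all. Relative to YH, the ratio in TH was 2.46-fold higher for COX6A1, 1.43-fold for COX7A2 and 1.78-fold for COX8A, as a ratio of geometric means. Relative to TL it was 2.55-fold, 1.47-fold and 1.90-fold. The scaled reads gave 2.64-fold, 1.56-fold and 1.70-fold relative to YH. With 2 libraries against 2, an exact permutation test cannot give a two-sided p under 0.333, so these ratios are a description. The libraries with high ratios were also those that stood apart by other markers. YL2 held the kidney genes, and TH the high atrial markers NPPA, MYL7 and SLN, while MYL4, TBX5 and NR2F2 were not highest there. MYL7, which carries most of the summed atrial level, was at 4283 and 3207 FPKM for TH against 337 to 2578 FPKM elsewhere. The part of either in the ratios was not tested. The COX8H locus overlaps 7 listed genes and that of COX7A2 overlaps COL12A1, so reads of neighbours may enter these pairs, while the loci of COX6A1 and COX6A2 overlap no listed gene.

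**Figure D5:**
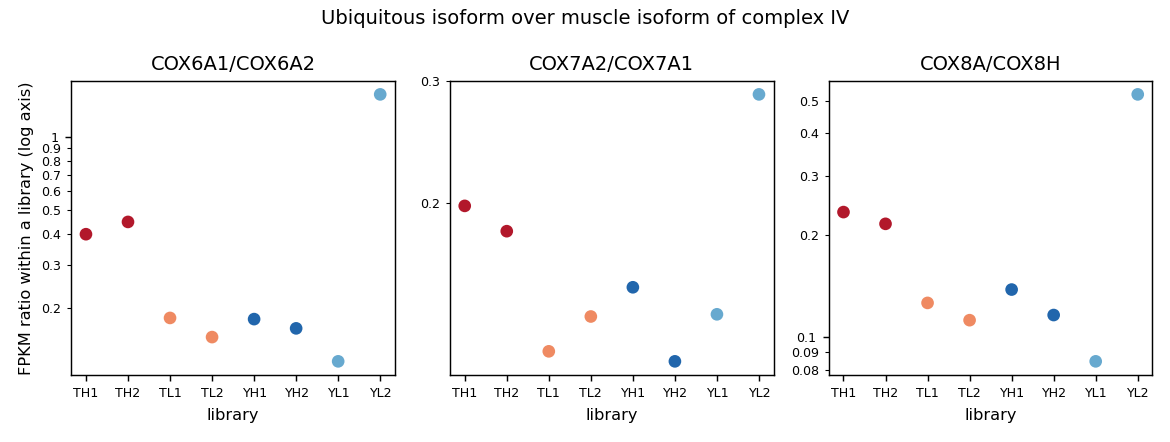
FPKM of the form found in most tissues divided by FPKM of the muscle form, for 3 subunits of complex IV, in each library on log axes that differ between panels, with colour for the group. TH1 and TH2 lie above TL, YH and YL1 in each panel, for COX6A1/COX6A2 at 0.400 and 0.449 against 0.121 to 0.182, and YL2 is the highest at 1.49, 0.287 and 0.522.

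Complex V is the ATP synthase. Its most abundant genes were ATP5B and ATP5A1, which encode the catalytic beta and the alpha subunit of the F1 head, and ATP5G1, which encodes the ring subunit c in the membrane. ATP5B (ENSSSCG00000000405, chr5:23659083-23666696) was at 1635 and 1256 FPKM for TH, 1922 and 1982 for TL, 1780.3 and 1837 for YH, and 1746 and 1032 for YL. ATP5A1 was at 1486 and 1117 FPKM for TH, 1483 and 1618 for TL, 1565 and 1858 for YH, and 1547 and 879.8 for YL. ATP5B lay lower in both TH libraries than in TL and YH, and ATP5A1 lower in both than in YH. ATP5B had a log2 fold change of 0.54 ± 0.36 in TL vs. YL and 0.43 ± 0.36 in YH vs. YL, with adjusted p of 0.719 and 0.803, and ATP5A1 one of 0.55 ± 0.38 in YH vs. YL, with an adjusted p of 0.784. Without YL2 these were 0.16, 0.05 and 0.14, and without YL1 they were 0.92, 0.81 and 0.95. ATP5G1 was at 2259 and 1420.3 FPKM for TH, 1414 and 1646 for TL, 1326 and 1277 for YH, and 1801 and 689 for YL. ATP5G3, which encodes the same mature subunit c as ATP5G1, was at 913 and 731 FPKM for TH, 858 and 899.7 for TL, 835 and 902 for YH, and 984 and 528 for YL.

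ATP5J, coupling factor 6 of the stalk, was listed in 2 rows at low levels. The row ENSSSCG00000022586 (chr13:199115875-199168012) was at 0.616 and 0.381 FPKM for TH, 0.478 and 1.22 for TL, 5.06 and 3.26 for YH, and 3.43 and 2.79 for YL. The Tibetan libraries thus lay below the Yorkshire libraries at both altitudes. Its log2 fold change was -1.77 ± 0.29 in TH vs. YH, with an adjusted p of 0.0787 that ran from 0.0523 to 0.522 over the alternatives, and -1.18 ± 0.29 in TL vs. YL, with an adjusted p of 0.301. With a pseudocount of 1, these values understate the difference of a gene this low. The row ENSSSCG00000030602, on the scaffold JH118804.1, was at 12.2 and 15.2 FPKM for TH, 22.0 and 20.3 for TL, 18.8 and 30.6 for YH, and 22.1 and 15.3 for YL. Its log2 fold change was -0.78 ± 0.30 in TH vs. YH and -0.60 ± 0.30 in TH vs. TL, with adjusted p of 0.285 and 0.507, and the former was -0.44 without YH2. The 2 rows share a name and may divide or lose reads of 1 gene, and the chromosome 13 row overlaps JAM2 and an unnamed gene, so the ATP5J values are uncertain.

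Other genes of the pathway were described by counts. The 13 mitochondrially encoded subunits had no called gene, and none had an unadjusted p under 0.05 in any of the 5 contrasts. All 13 had a positive fitted difference in TH vs. YH and in TH vs. TL, with medians of 0.46 and 0.49, which were 0.01 and 0.08 without TH1 and 0.99 and 0.98 without TH2, and their summed FPKM was 1144869 in TH1 and 590143 in TH2, against 443377 to 715888 in TL and YH. Their high sum thus rested on TH1, as for the nuclear members, and YL showed the same split at 974356 and 330661. Scaling libraries to the same FPKM sum moves every gene by -0.99 in TH vs. YH and -0.64 in TH vs. TL. Each of these moves is larger in size than the median it applies to. Of the assembly factors that the symbol rule did not take, 29 rows were tested and none was called. In TH vs. YH, 19 of the 29 were lower and 10 higher, with a median of -0.17 that was -0.30 without TH1, 0.09 without TH2 and -0.07 without YH1, and 5 of them had an unadjusted p under 0.05, all lower, against 8.47% of all genes. They were COX15 and COX18, factors of complex IV, and 3 rows named NUBPL, a factor that delivers iron-sulphur clusters to complex I. The NUBPL row ENSSSCG00000022171 had a log2 fold change of -1.40 ± 0.27 with an adjusted p of 0.0986. Of the transcription and mitochondrial DNA regulators, 14 were tested and none was called. PPARGC1B, a coactivator of mitochondrial genes, was at 4.35 and 4.78 FPKM for TH, 5.61 and 5.02 for TL, 4.17 and 3.59 for YH, and 1.94 and 2.53 for YL. Both YL libraries lay below the other 6. Its log2 fold change was 0.97 ± 0.20 in TL vs. YL, with an adjusted p of 0.253, and 0.60 ± 0.20 in YH vs. YL, with an adjusted p of 0.765. ESRRB, an estrogen-related receptor, was at 0.0603 and 0.935 FPKM for TH and 2.34 and 2.09 for YH, with a log2 fold change of -1.16 ± 0.30 and an adjusted p of 0.172. This was -0.73 without TH1 and -1.60 without TH2.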

How the data were processed

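RNA of heart was sequenced as 100-base reads in 8 libraries, 2 for each of TH, TL, YH and YL. The authors aligned reads to Sscrofa10.2 with TopHat (2.0.9 in the submitters' processing notes) and deposited FPKM values from Cufflinks for each library. They also deposited read numbers divided by a factor per library, a signal with no unit, which was used as an alternative to FPKM. Of the low values of that signal, 99.7% to 99.8% were whole multiples of 1 step within 0.05, but the values did not pass as whole reads for all genes, so no count model was run. The 8 columns of group means and ratios were not used. The sample notes of YL point to the table of TL, so groups were taken from the titles and the breed and altitude labels.

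Members were found by symbol, and the members and gene lists were chosen with earlier results of these data known. A linear model with 1 term per group was fitted to log2(FPKM + 1) with limma 3.58.1 in R 4.3.3 (trend on the mean), over 11913 genes (1 FPKM or more in 2 or more libraries), and p-values were adjusted by the Benjamini-Hochberg method over all of them. The fit was also run on simulated data, with genes independent of each other and an equal spread in all groups. That run cannot speak to the shared shifts within TH and YL. Nothing in the sources says how animals were divided between the pools of a group. The p-values measure the spread between pools within all 4 groups together, also where only 2 groups are compared. Genes were named by rule: the 3 most abundant per complex, known isoform sets, members whose libraries did not overlap between groups (the 5 largest differences each way), and members in more than 1 row. Fold changes of SDHA in TH vs. YH, those of the interaction, and the genes named from the marker and pathway lists were chosen after their values were seen. Alternatives were another pseudocount, filters on low values, scalings, no trend, the replicate number as a block, the libraries compared only, each library left out, and looser thresholds. A library's number of reads limits the precision of low genes, and planned descriptions of promoters and proteins were not made here.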

Additional observations from a re-analysis of the deposited data

How the results depend on the processing

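Of 908 values recomputed under alternatives, 705 of single members kept their direction and side of the threshold. A further 186 of counts and medians stayed the same or moved by less than the spread between libraries. Many of these could not differ. A fit without trend, other filters, a block or only the libraries compared leave a fold change as it was. So does leaving out a library of another group. With no member called, the side of the threshold could seldom change. A median counted as kept within the spread even where its sign changed, as from 0.18 to -0.23 without TH1 in TH vs. YH. The counts are therefore no measure of stability. At the looser threshold of an unadjusted p under 0.01 with a log2 fold change over 1, the count of members rose from 0 to 3 in TH vs. YH, where 4.06% of all genes passed, and to 1 in each of TL vs. YL, the interaction and TH vs. TL, where 2.03%, 2.85% and 2.57% of all genes passed. With every library scaled to an FPKM sum of 1000000, the median of the members was -0.79 in TH vs. YH, -0.62 in TH vs. TL and -0.72 in the interaction, where all genes shifted to -0.50, -0.27 and -0.26. That scaling moves every gene by -0.99 in TH vs. YH, -0.64 in TH vs. TL and -0.65 in the interaction before the pseudocount. Under it, fitted differences changed sign for COX6B (-0.26), COX7A2 (-0.30), COX7A2L (-0.19) and NDUFB5 (-0.36) in TH vs. YH, and for COX7A2L (-0.06), COX8A (-0.02), NDUFAF6 (-0.20) and NDUFB10 (-0.33) in TH vs. TL. NDUFAF6 in TH vs. TL was also -0.02 when the sum left out the mitochondrial genome and -0.01 when libraries were centred on the members, an alternative chosen after seeing the data. With scaled reads in place of FPKM, also chosen after seeing the data, the members' medians were 0.20 in TH vs. YH, 0.01 in TH vs. TL, 0.25 in TL vs. YL, 0.08 in YH vs. YL and -0.02 in the interaction. All 38 fold changes of named members kept their sign there, and 8 moved by more than 1.5 times, NDUFS4 in YH vs. YL the most, from 0.49 to 0.15. The cause was not tested beyond these constructions. With each library left out in turn, no member was called, and the median of the members ran from -0.23 to 0.55 in TH vs. YH, -0.15 to 0.75 in TL vs. YL, -0.38 to 0.37 in TH vs. TL, -0.31 to 0.61 in YH vs. YL and -0.57 to 0.35 in the interaction. A lone library was taken to vary like the other groups. The replicate number as a block gave 0 members called in every comparison. The medians, such as 0.18 in TH vs. YH, could not change under it, since each group holds 1 library of each number. Differences between replicates correlated at only -0.08 to 0.12 between groups, so the numbers did not pair the libraries. edgeR and DESeq2 were planned and not run, since the deposited signal did not pass as whole reads. Depth limits the low members, such as the ATP5J row at 0.381 FPKM in TH2.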

Other observations

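Rows of 6 further genes carry an oxidative phosphorylation symbol only in the gene name table and were outside the symbol rule. UQCRC2, a core subunit of complex III (ENSSSCG00000007845), was at 48.7 and 60.7 FPKM for TH, 107 and 109.7 for TL, 97.3 and 108 for YH, and 103 and 68.5 for YL. Both TH libraries lay below the other 6, and without YL2 the lowest value elsewhere was 97.3 FPKM. Its log2 fold change was -0.90 ± 0.27 in TH vs. YH and -0.98 ± 0.27 in TH vs. TL, with adjusted p of 0.198 and 0.272 in limma, so it was not called. NDUFA9, an accessory subunit of complex I, was at 166 and 146 FPKM for TH, 234 and 234 for TL, 217 and 230.2 for YH, and 232 and 143 for YL, with a log2 fold change of -0.52 ± 0.28 in TH vs. YH and an adjusted p of 0.411. UQCR11, a small subunit of complex III, was at 1691 and 982 FPKM for TH and between 643 and 1519 FPKM in the other libraries. NDUFA2 was at 400.1 and 208 FPKM for TH and between 152 and 256 FPKM elsewhere. NDUFA6 stood between 14.0 and 33.9 FPKM over the 8 libraries, and NDUFA4L2, a relative of NDUFA4 known to respond to low oxygen, at or under 0.233 FPKM in each of them, below the filter on low values.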
